A study of Mus musculus with 12 samples.

Results

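Cytosolic ribosomal protein genes encode the protein parts of the ribosome that translates nuclear mRNAs. They were taken as the protein-coding genes whose symbols begin with Rpl, Rps or Rplp and go on with a number and at most 1 letter (a, x or l). The rule found 80 of the 45777 genes in the deposited table: 47 genes of the large subunit (Rpl), the 3 genes of the P stalk (Rplp) and 30 genes of the small subunit (Rps). Of these, 78 passed the filter for testing, which asked for at least 0.5 FPKM (fragments per kilobase of transcript, scaled to library size) in at least 3 samples. Rpl3l and Rpl10l did not pass: Rpl10l had 0 counts in all 12 samples, and Rpl3l had 18 counts in Metformin+FK506 sample 3 and 0 in the others. The name pattern leaves out some ribosomal proteins, such as Rpsa, Rps3a1 and Fau, whose values are given separately.

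Splenic CD4+ T cells of wild-type C57BL/6 mice, aged 7 weeks in the labels, were kept for 3 days with anti-CD3 at 0.5 µg/ml. The stimulus was common to all 4 groups: no drug (Control), metformin, FK506 (tacrolimus, which inhibits the phosphatase calcineurin through FKBP12) and both drugs (Metformin+FK506). Poly(A) RNA of 3 samples in each group was sequenced. The methods of the study also list anti-CD28 for T cell activation and give an older age for its mice. Drug doses for these cultures are not given in the sources used here, and nothing says whether samples of a group came from separate mice or cultures, so that p-values measure the spread between these samples, which may be technical.

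Each ribosome carries a single copy of nearly all of these proteins, and cells make them in step with ribosomal RNA, which is transcribed and assembled in the nucleolus. Most ribosomal protein mRNAs begin with a 5′ terminal oligopyrimidine (TOP) tract, a C followed by a run of C or T, through which the kinase mTORC1 and the binding protein LARP1 control their translation and stability. When a resting T cell is stimulated through its antigen receptor it grows, and ribosome production is part of that growth.

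Ribosomal protein genes held a large share of the RNA. In Control, they took 10.4%, 10.4% and 10.3% of all counted reads in the 3 samples. With metformin the shares were 12.8%, 13.0% and 12.5%. With FK506 they were 4.16%, 3.93% and 3.83%, and with both drugs 3.91%, 4.33% and 4.33%. The metformin samples therefore all lay above Control, and the samples with FK506, alone or with metformin, all lay below it and overlapped each other. On the FPKM scale, which divides by transcript length, the mean share of the Control samples was 25.3% ± 0.0872 (SD, n = 3). It was 30.3% ± 0.337 in the metformin samples, 11.5% ± 0.339 in the FK506 samples and 12.3% ± 0.590 in those with both. Of the 100 genes with the most FPKM in a sample, 64 were ribosomal protein genes in every Control sample, 69 in every metformin sample, 45 to 47 with FK506 and 48 to 52 with both. The 2 subunits kept nearly the same proportion, with the P stalk counted in the large one. The summed FPKM of Rps genes was 0.640 ± 0.00276 (SD, n = 3) times that of Rpl and Rplp genes together in Control. The ratio was 0.645 ± 0.00489 with metformin. It was 0.690 ± 0.00669 with FK506 and 0.683 ± 0.0153 with both, above the samples without FK506.

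**Figure D1:**
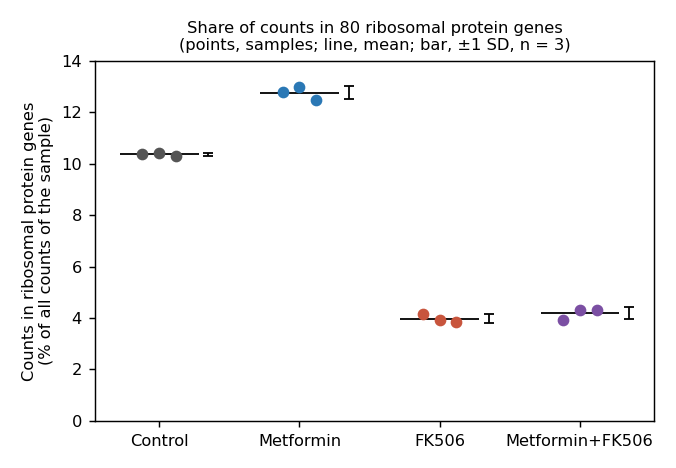
Share of all counts of a sample that fell in the 80 ribosomal protein genes (vertical axis, percent) for the 3 samples of each group (points), with the mean (line) and ±1 SD (bar). The metformin samples lie between 12.5% and 13.0%, above the Control samples at 10.3% to 10.4%, and the 6 samples with FK506 lie between 3.83% and 4.33%.

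The summed FPKM of cell type markers also differed between the groups. The 12 T cell genes checked (Cd3d, Cd3e, Cd4, Lck and others) were all detected in every group, at a summed 2474 to 2530 FPKM in Control, 2383 to 2489 with metformin, 2098 to 2214 with FK506 and 2284 to 2362 with both. They did not move as 1 set. With FK506 against Control, 8 fell and 4 rose (39.6% and 41.3% of all genes tested). Their log2 fold changes there ran from -1.37 (Thy1) to 0.29 (Cd4). With metformin added to FK506, 6 rose and 2 fell (15.6% and 15.0% of all genes tested). The 10 B cell markers summed to 63.8 to 67.9 FPKM in Control, 88.5 to 104.2 with metformin, 892.6 to 930.6 with FK506 and 426.0 to 457.0 with both, with 9 of 10 at 0.5 FPKM or more in Control and metformin and 10 of 10 with FK506, alone or with metformin. The 10 myeloid markers summed to 4.40 to 4.57, 8.73 to 10.04, 1227 to 1260 and 782.0 to 911.6 FPKM in the same order. Of these, 1 of 10 (Cd68) reached 0.5 FPKM in Control and metformin, where C1qa, C1qc and Fcgr1 were at 0, and 9 of 10 did with FK506. The 8 genes of naive or resting T cells summed to 552.2 to 572.2, 739.0 to 760.6, 1263 to 1298 and 948.0 to 973.4 FPKM. These genes also went both ways: against Control, 6 rose and 1 fell with FK506 (41.3% and 39.6% of all genes tested). With both drugs 5 rose and 2 fell (42.1% and 39.6%), from -1.81 (Satb1) to 4.72 (Klf2) on the log2 scale. Cd8a and Cd8b1, which mark CD8 T cells, summed to 9.005 to 9.521, 12.9 to 13.2, 6.84 to 7.34 and 6.93 to 8.64 FPKM, and the 5 erythroid genes to at most 0.152 FPKM in Control and metformin, 1.41 to 2.24 with FK506 and 2.55 to 3.54 with both. In bulk RNA, fewer cells of a type and less RNA per cell cannot be told apart. In the study's methods, splenic CD4+ T cells were purified on magnetic columns after binding to CD4-coated beads. The part of the other cell types in the differences below was not tested, and the counts of genes called are also given after scaling each library to its 12 T cell genes, an alternative chosen after seeing the data. Total counts ran from 43402632 to 64290105 per sample, and no group stood apart in depth.

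FK506 against Control asks how the calcineurin inhibitor changed the stimulated cells. Ribosomal protein mRNAs were lower in FK506 almost without exception. Of the 78 genes tested, 77 fell and 0 rose (edgeR quasi-likelihood test, adjusted p under 0.05), where 39.6% of all 15197 genes tested fell and 41.3% rose. No gene rose at an unadjusted p under 0.05 either, and DESeq2 also called 0 higher. The median log2 fold change was -1.57, to 0.338 of the Control level, while the median of all genes tested was 0.02. A fall of at least 1 on the log2 scale was seen in 73 of them, against 16.7% of all genes tested. In 76, all 3 FK506 samples lay below all 3 Control samples on the FPKM scale, against 32.9% of all genes. The Rpl genes had a median of -1.60, the P stalk -1.42 and the Rps genes -1.49. Scaled to the T cell genes, 75 of 78 fell and the median was -1.17, where 25.4% of all genes tested fell, 57.9% rose and the median of all genes was 0.42. With quantile normalization, which forces each sample to 1 distribution of values, limma called 70 lower and 1 higher with a median of -0.60, beside 41.6% and 37.9% of all genes tested.

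These fold changes come from counts scaled by TMM, which sets a trimmed mean of the fold changes between libraries to 0. FPKM values carry no such factor, so the ratios of FPKM printed here understate the fitted falls by a median of 0.22 on the log2 scale in this comparison. Rps24, a small subunit protein whose mRNA is spliced into several forms, was the gene whose FPKM ratio and fitted value differed most: -1.02 by FPKM and -1.57 by the fit.

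The largest falls were in Rpl10a, Rps18, Rpl13a, Rps27a and Rpl39. Rpl10a, a protein of the large subunit's L1 stalk, was at 1552, 1533 and 1455 FPKM in Control and at 394, 394 and 371 FPKM with FK506. Its log2 fold change was -2.18 ± 0.043 (SE, edgeR adjusted p = 7.05e-17). Rps18, of the small subunit's head, stood at 3450, 3449 and 3455 FPKM in Control and at 957, 928 and 872 FPKM with FK506, a log2 fold change of -2.12 ± 0.048 (SE, edgeR adjusted p = 4.14e-16). In both genes the Control samples lay close together and every FK506 sample lay far below them.

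Rpl13a, which also has a known role outside the ribosome in silencing inflammatory mRNAs, had 3270, 3173 and 3179 FPKM in Control and 921, 867 and 802 FPKM with FK506 (log2 fold change -2.11 ± 0.070 SE, edgeR adjusted p = 5.43e-14). Rps27a, made as a fusion with ubiquitin, had 2178, 2182 and 2140 FPKM in Control and 626, 578 and 556 FPKM with FK506 (log2 fold change -2.10 ± 0.071 SE, edgeR adjusted p = 6.8e-14). Rpl39, a short protein that lines the exit tunnel, had 1241, 1214 and 1253 FPKM in Control and 371, 313 and 319 FPKM with FK506 (log2 fold change -2.10 ± 0.080 SE, edgeR adjusted p = 3.01e-13). The groups did not overlap in any of these genes. The genes that had the most FPKM in Control were Rplp1, at a mean of 3570, Rps18 and Rpl12. Rplp1, an acidic protein of the stalk that recruits translation factors, fell by 2.00 on the log2 scale, its stalk partner Rplp2 by 1.14 and the stalk base Rplp0 by 1.42.

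At the other end, the genes above 10 FPKM that fell by less than 1 on the log2 scale included Rps27l, Rpl21 and Rpl37a. Rpl21, a protein of the large subunit, was at 489.6, 505.5 and 481.4 FPKM in Control and at 328, 310.4 and 309 FPKM with FK506. Its log2 fold change was -0.86 ± 0.046 (SE, edgeR adjusted p = 2.79e-11). The rank of Rps27 by FPKM among the 80 genes, at a log2 fold change of -1.10, went from 24 in Control to 3 with FK506. Rpl10a went the other way, from 39 to 61. The order of levels within the ribosomal protein genes was therefore not the same with and without FK506, and the means in Control of the 76 genes above 10 FPKM ran from 102 FPKM (Rps27l) to 3570 FPKM (Rplp1) around a median of 1586.

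**Figure D2:**
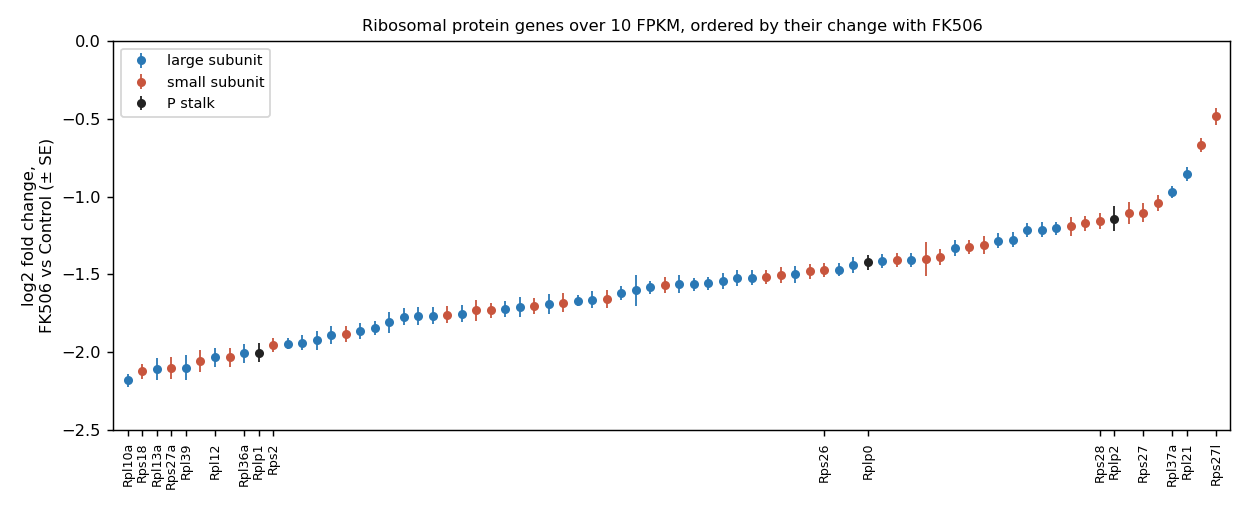
Log2 fold change between FK506 and Control (vertical axis, edgeR, ± SE) for the 76 ribosomal protein genes above 10 FPKM in Control (horizontal axis, ordered by value, a selection labelled), with large subunit, small subunit and P stalk genes in different colours. Values run from -2.18 (Rpl10a) to -0.48 (Rps27l), and genes of the large and small subunits are mixed along the order.

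By coding length (GENCODE M21), the median log2 fold change with FK506 was -1.15 for the 9 genes under 300 bases, -1.56 for the 21 of 600 bases or more and -1.61 for the 46 in between. Over the 76 genes above 10 FPKM, which share the same libraries, Spearman's rho between the log2 fold change and the coding length was -0.02, and with the Control FPKM it was -0.32, the genes with more FPKM in Control having the more negative values. The second relation shares the Control values with the fold change itself.

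Sequence around the transcription start was read from RefSeq (GRCm38.p6) for the 58 tested genes with an entry. It is shown because the TOP tract that defines this group of mRNAs begins at the start. The windows run from 45 bases before the start to 30 bases from the start on, 5′ to 3′ on the coding strand, with each run of a C followed by at least 7 C or T in capitals. The first lines are the largest falls with FK506 among genes with 1 listed start:
Rps18, chr17:33955636-33955710, minus strand: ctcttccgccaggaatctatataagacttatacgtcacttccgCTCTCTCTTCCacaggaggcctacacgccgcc
Rpl13a, chr7:45128716-45128790, minus strand: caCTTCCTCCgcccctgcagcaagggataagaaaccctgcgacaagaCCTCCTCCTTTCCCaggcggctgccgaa
Rpl39, chrX:37085193-37085267, minus strand: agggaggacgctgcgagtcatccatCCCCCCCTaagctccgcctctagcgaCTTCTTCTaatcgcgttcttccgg
Rpl12, chr2:32961667-32961741, plus strand: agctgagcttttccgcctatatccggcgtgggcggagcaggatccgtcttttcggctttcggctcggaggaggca
The next are the smallest falls among such genes:
Rpl37a, chr1:72711215-72711289, plus strand: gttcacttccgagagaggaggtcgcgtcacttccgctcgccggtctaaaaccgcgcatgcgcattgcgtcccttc
Rps27, chr3:90213619-90213693, minus strand: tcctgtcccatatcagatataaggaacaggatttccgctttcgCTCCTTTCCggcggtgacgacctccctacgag
Rplp2, chr7:141447606-141447680, plus strand: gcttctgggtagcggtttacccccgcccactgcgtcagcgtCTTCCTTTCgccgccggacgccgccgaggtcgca
Rps28, chr17:33824533-33824607, minus strand: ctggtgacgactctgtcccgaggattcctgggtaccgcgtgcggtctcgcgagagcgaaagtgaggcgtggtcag
The last is Rps2, which metformin did not raise:
Rps2, chr17:24720018-24720092, plus strand: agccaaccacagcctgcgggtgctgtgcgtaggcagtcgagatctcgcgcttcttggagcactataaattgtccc

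A run of this kind stood in the window of 39 of the 58 genes (67.2%), against 26.6% of the 9841 tested protein-coding genes with an entry. As a description, genes with a run had a median log2 fold change with FK506 of -1.58 (39 genes) and genes without had -1.50 (19 genes). A run could lie anywhere in the window, so it need not be the TOP tract. Shorter tracts near the start, as in Rpl12, were not counted, so the lack of a run does not mean that a TOP tract is absent. By this rule Rpl12, among the largest falls, and Rpl37a and Rps28, among the smallest, had no run. Rpl13a and Rps27 had at least 1. CTTTCC on the coding strand, which can overlap such a run, was in the 300-base window (250 bases before to 50 after the start) of 41.4% of the ribosomal protein genes and 17.2% of all. On the other strand it was in 17.2% and 15.9%. CCGGAAG, a core of ETS factor sites, searched on both strands, was in 41.4% and 20.3%. CACGTG, the E-box bound by MYC, reads the same on both strands and was in 10.3% and 11.6%. These motifs were chosen with the results known, and a match is no evidence of binding.

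Metformin against Control asks what the drug did by itself. Here the same genes were higher. Of the 78 tested, 72 rose and 0 fell, where 28.6% of all genes tested rose and 27.4% fell. At an unadjusted p under 0.05, 1 gene (Rps2) was lower, and DESeq2 called 1 lower. The median log2 fold change was 0.27, to 1.21 times the Control level, so the rises were small beside the falls with FK506. In 74, all 3 metformin samples lay above all 3 Control samples (36.0% of all genes tested), and the reverse held in 1 (29.0%). The Rpl genes rose by a median of 0.27, the P stalk by 0.23 and the Rps genes by 0.28. Scaled to the T cell genes, 72 rose (31.0% of all genes tested), with a median of 0.30. With quantile normalization, limma called 33 higher and 3 lower, with a median of 0.09, where 27.8% and 22.8% of all genes tested were higher and lower.

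The largest rises were in Rpl36a, Rpl30, Rps27, Rpl37a and Rps21. Rpl36a, near the ribosome's exit site for transfer RNA, was at 975, 998 and 984 FPKM in Control and at 1514, 1456 and 1412 FPKM with metformin, a log2 fold change of 0.54 ± 0.060 (SE, edgeR adjusted p = 1.18e-06). Rpl30, a protein of the large subunit, was at 1311, 1316 and 1311 FPKM in Control and at 1880, 1894 and 1822 FPKM with metformin, a log2 fold change of 0.47 ± 0.056 (SE, edgeR adjusted p = 2.21e-06). Every metformin sample exceeded every Control sample in both. Rps27, a zinc-finger protein of the small subunit, rose by 0.47 ± 0.060, Rpl37a by 0.46 ± 0.038 and Rps21 by 0.45 ± 0.069 on the log2 scale.

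The 6 genes that did not pass the test were Rps2, Rps27l, Rpl27, Rps9 and the barely detected Rpl39l and Rpl32l. Rps2, at the entrance of the mRNA channel, was at 2435, 2357 and 2342 FPKM in Control and at 2186, 2325 and 2288 FPKM with metformin. It was the 1 gene with all metformin samples below all Control samples, at a log2 fold change of -0.10 ± 0.043 (SE, edgeR adjusted p = 0.0599). With FK506 it fell like the rest, to 734, 716 and 690 FPKM. Rps9 had a log2 fold change of 0.21 ± 0.109, with a spread between samples larger than that of most of these genes. Over the 76 genes above 10 FPKM, the rise with metformin and the coding length had a Spearman's rho of -0.40, the shorter genes having the larger values. The 9 genes with a coding length under 300 bases had a median log2 fold change of 0.38, and the 21 of 600 bases or more had 0.23.

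**Figure D3:**
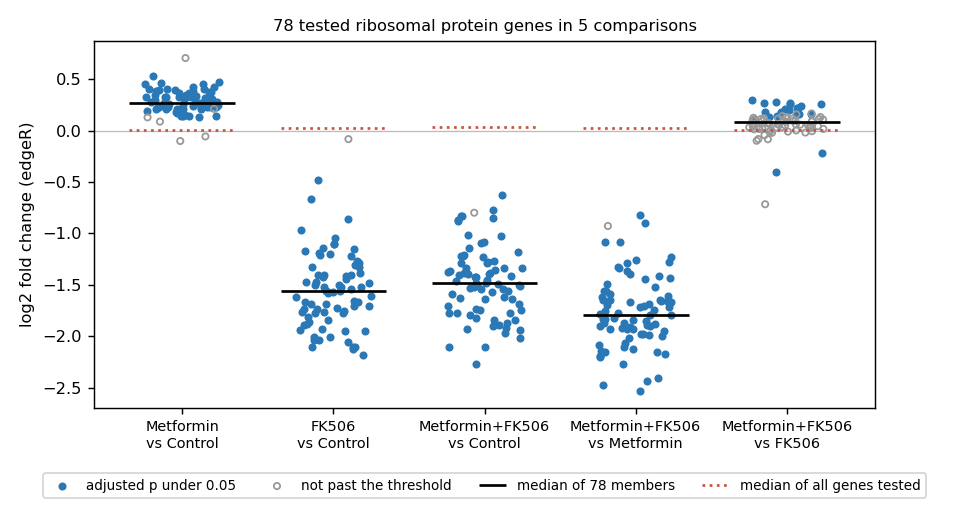
Log2 fold change (vertical axis, edgeR) of the 78 tested ribosomal protein genes (points) in 5 comparisons, with their median (solid line) and that of all genes tested (dotted line). The medians are 0.27 for metformin against Control, -1.57 for FK506 against Control, -1.48 and -1.79 for both drugs against Control and against metformin, and 0.09 for both drugs against FK506.

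With both drugs, ribosomal protein genes were again lower than in Control. Of 78, 77 fell and 0 rose (39.6% and 42.1% of all genes tested). The median log2 fold change was -1.48, and in 76 the samples did not overlap (33.0% of all genes). At an unadjusted p under 0.05, 0 rose, and DESeq2 called 0 higher. The largest falls were in Rpl10a (-2.27 ± 0.043 SE), Rps27a (-2.11 ± 0.071), Rps20 (-2.10 ± 0.071), Rpl13a (-2.02 ± 0.070) and Rps18 (-1.97 ± 0.048). With T cell scaling 76 fell (30.2% of all genes tested) and the median was -1.23, where that of all genes was 0.29. With quantile normalization 67 fell and 4 rose (40.8% and 39.5% of all genes tested), with a median of -0.58.

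FK506 added to metformin lowered these genes from a higher start. Against metformin, 77 of 78 fell and 0 rose (37.9% and 40.3% of all genes tested), at an unadjusted p under 0.05 also 0 and with 0 by DESeq2, and the median log2 fold change was -1.79. In 77, samples did not overlap (30.9% of all genes). With T cell scaling 77 fell (28.2% of all genes tested) at a median of -1.57, where that of all genes was 0.25. With quantile normalization 71 fell and 1 rose (40.2% and 37.3% of all genes tested), with a median of -0.65. Rps27a went from 3104, 3151 and 2682 FPKM with metformin to 512, 591 and 621 FPKM with both (log2 fold change -2.53 ± 0.072 SE, edgeR adjusted p = 1.09e-14). Rpl36a went from the values given above to 264, 301 and 318 FPKM (log2 fold change -2.47 ± 0.064 SE, edgeR adjusted p = 3.09e-15). Rps20, which sits in the small subunit's head, fell by 2.43 on the log2 scale, Rpl10a by 2.40 and Rpl39 by 2.27. The samples with and without FK506 stood far apart in each of them.

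Metformin added to FK506 moved fewer of these genes past the threshold. Against FK506, 19 of 78 rose and 2 fell (15.6% and 15.0% of all genes tested). The median log2 fold change was 0.09, to 1.06 times the FK506 level. It was 0.035 without FK506 sample 3, 0.053 and 0.055 without Metformin+FK506 samples 3 and 2, and 0.13 without its sample 1. In 6 genes (Rpl12, Rpl13, Rpl23, Rpl37a, Rpl38 and Rps23) all samples with both drugs lay above those with FK506 alone, and in Rps26 and Rps27l they all lay below (16.4% and 22.2% of all genes). The number of rises depended on single libraries: it was 35 without Metformin+FK506 sample 1, 7 without its sample 2 and 9 without its sample 3, and 10 and 5 without FK506 samples 2 and 3. In the same order these are 44.9%, 8.97%, 11.5%, 12.8% and 6.41% of the members, beside 13.3%, 14.7%, 14.1%, 13.6% and 12.1% of all genes tested, the first of these above the share of all genes and the other 4 below it. Without FK506 sample 1, 28 rose (35.9%, beside 11.6% of all genes). Without Metformin+FK506 sample 3, 4 genes fell. Scaled to the T cell genes, 1 rose and 19 fell, and the median was -0.055. That scaling moved the median of all genes tested from 0.002 to -0.14, with 36.3% of them lower and 7.23% higher, and the members' median lay 0.086 above that of all genes with TMM and 0.085 above it with the T cell scaling.

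The largest rises were in Rplp2 (0.29 ± 0.081 SE), Rps21 (0.28 ± 0.070), Rps23 (0.27 ± 0.054), Rpl36 (0.27 ± 0.097) and Rpl12 (0.26 ± 0.058). Scaled to the T cell genes, Rps21 (0.13) and Rpl12 (0.12) no longer passed the test. Rps23, near the decoding centre, was at 798, 765 and 729 FPKM with FK506 and at 825, 926 and 965 FPKM with both, without overlap (edgeR adjusted p = 0.00119). Rplp2 had 700.2, 616 and 603 FPKM with FK506 and 680.4, 888 and 742 FPKM with both, which overlap, and without Metformin+FK506 sample 2 its change was 0.16 and no longer passed the test. Nor did it pass without FK506 sample 2 (0.26), without FK506 sample 3 (0.24) or scaled to the T cell genes (0.15). Rpl36, a large subunit protein, was at 0.089 without Metformin+FK506 sample 2, 0.19 without FK506 sample 3 and 0.12 scaled to the T cell genes, and passed the test in none of these. It also no longer passed under other alternatives, among them DESeq2 size factors, the DESeq2 Wald test and no filter on low values, and when any 1 Control or metformin library was left out, where its change stayed at 0.27.

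The genes that went down were Rps27l and Rps26. Rps26, which contacts the mRNA upstream of the start codon, was at 791, 776 and 699 FPKM with FK506 and at 620.2, 624 and 678 FPKM with both. Its log2 fold change was -0.21 ± 0.045 (SE, edgeR adjusted p = 0.00167). In the absence of FK506, metformin had raised it, from 1780, 1849 and 1781 FPKM to 2142, 2202 and 2203 FPKM.

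**Figure D4:**
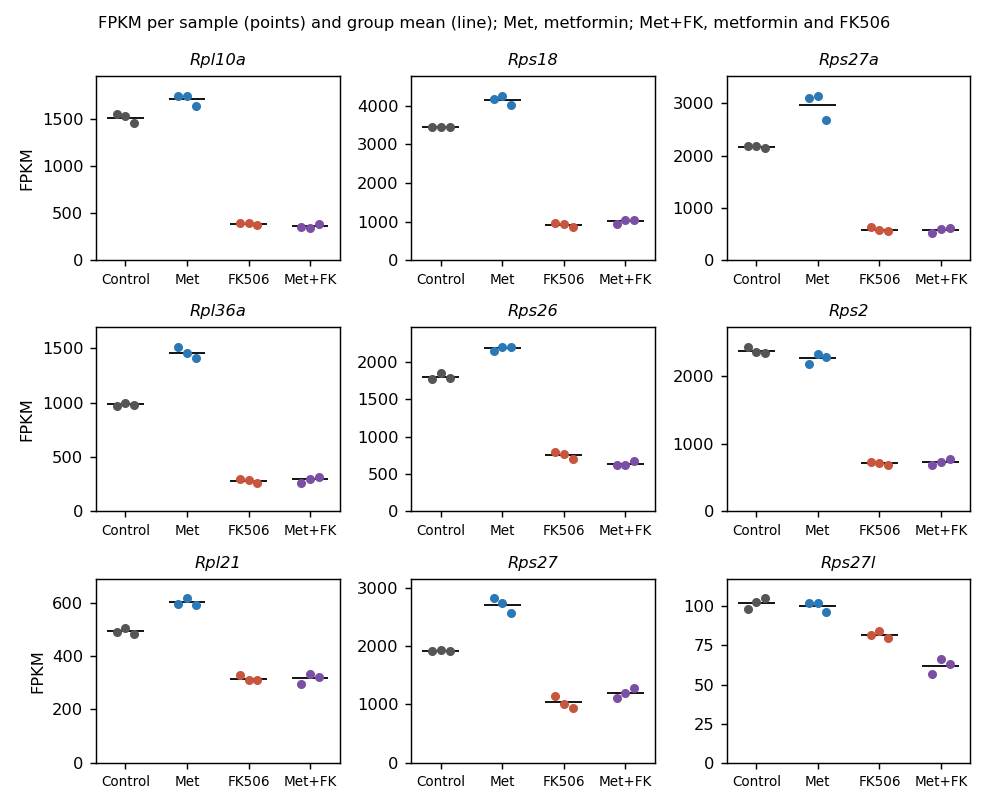
FPKM (vertical axis, linear and starting at 0) of 9 ribosomal protein genes in the 3 samples of each group (points) with the group mean (line). Rpl10a, Rps18, Rps27a, Rpl36a and Rps26 lie far lower in the samples with FK506, Rps2 is not higher with metformin, and Rpl21 and Rps27l change less.

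The interaction asks whether metformin changed a gene by the same amount with FK506 as without it. It was negative for 41 of the 78 genes and positive for 1 (24.0% and 22.5% of all genes tested), with a median of -0.20 on the log2 scale against -0.02 for all genes. Of the 41, 25 were Rpl and 16 were Rps genes. Leaving out 1 library at a time gave 30 to 48 negative and 0 or 1 positive. The largest were Rpl36a (-0.46 ± 0.086 SE, edgeR adjusted p = 0.000343), Rps26 (-0.46 ± 0.063, edgeR adjusted p = 1.79e-05), Rps27a (-0.43 ± 0.097), Rps20 (-0.38 ± 0.097) and Rpl5 (-0.36 ± 0.057). With quantile normalization the value of Rpl36a was -0.22 and did not pass the test. For Rpl36a, the change with metformin was 0.54 without FK506 and 0.08 ± 0.062 with it. For Rpl5, which with Rpl11 and 5S ribosomal RNA forms the particle that binds the p53 regulator MDM2, it was 0.41 and 0.04 ± 0.040. The 1 positive gene was Rps2 (0.16 ± 0.062, edgeR adjusted p = 0.0461), for which metformin gave -0.10 without and 0.06 with FK506. Scaled to the T cell genes, 70 were negative and 0 positive, and the value of Rps2 was -0.016. Under that scaling 36.7% of all genes tested were negative, and the median of all genes moved from -0.02 to -0.19. Rps2 was also not called when any 1 Control library was left out (0.14 to 0.17), and with quantile normalization 20 genes were negative and 5 positive, with a median of -0.02, where 23.8% and 21.7% of all genes tested were negative and positive, with a median of -0.01.

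Several members have a known role or a partner of their own. Rpl5 was at 1670, 1709 and 1671 FPKM in Control, 2265, 2277 and 2195 FPKM with metformin, 671, 650 and 624 FPKM with FK506 and 618, 632 and 681 FPKM with both. Rpl11 ran from 884 to 934 FPKM in Control, 1020 to 1213 with metformin, 373 to 418 with FK506 and 357 to 433 with both. Both genes thus had the pattern of the group, with metformin highest and the FK506 groups lowest. Rps6, the substrate of S6 kinase, was at 1178 to 1221, 1536 to 1600, 487 to 551 and 539 to 573 FPKM in the same order. Rps19, mutated in Diamond-Blackfan anaemia, was at 1703 to 1732, 2243 to 2320, 668 to 736 and 668 to 755 FPKM. Rpl41, one of the shortest proteins known, was at 2816 in all 3 Control samples, 3458 to 3710 with metformin, 908 to 1009 with FK506 and 876 to 1024 FPKM with both.

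Several members have paralogs. Rps27l, a paralog of Rps27 and a known target of p53, was at 97.9, 103 and 105 FPKM in Control, 102, 102 and 96.5 with metformin, 81.7, 84.4 and 79.8 with FK506 and 56.5, 66.1 and 63.2 FPKM with both. It had the smallest fall with FK506 among the 76 genes above 10 FPKM (log2 fold change -0.48 ± 0.057 SE, edgeR adjusted p = 7.41e-07), did not pass the test with metformin (-0.06 ± 0.057), and fell by 0.40 ± 0.058 on the log2 scale when metformin was added to FK506. Rps27 had 1912, 1927 and 1911 FPKM in Control and 1142, 1012 and 948 FPKM with FK506. Rpl22, and Rpl22l1, a paralog outside the name pattern, both fell: Rpl22 from 263, 273 and 267 FPKM in Control to 91.0, 84.9 and 81.2 with FK506 (log2 fold change -1.87 ± 0.053 SE), and Rpl22l1 from 530.2, 511 and 541 FPKM to 62.9, 60.8 and 58.3 (-3.31 ± 0.077 SE). Rpl22l1 was thus above Rpl22 in Control and below it with FK506. Rpl3, Rpl10 and Rpl39 had means of 1881, 1772 and 1236 FPKM in Control, whereas their paralogs Rpl3l and Rpl10l were at 0 there and Rpl39l was between 0.276 and 0.959 FPKM in all samples. Rpl32l was between 0.0774 and 1.13 FPKM. Rps4x, the X-linked copy of Rps4, fell by 1.48 ± 0.050 on the log2 scale with FK506 and rose by 0.31 ± 0.049 with metformin.

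Among the 8 ribosomal proteins outside the pattern (among them Rpsa, Rps3a1, Fau, Rpl22l1, Rpl7l1 and the scaffold Rack1), 8 fell and 0 rose with FK506 (39.6% and 41.3% of all genes tested), at a median log2 fold change of -1.30. With metformin 6 rose and 1, Rpl7l1, fell (28.6% and 27.4% of all genes tested). Fau, a fusion of a ubiquitin-like protein with a small subunit protein, changed by -1.31 ± 0.050 (SE) with FK506 and 0.06 ± 0.049 with metformin, the second of which did not pass the test.

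Translation factors and other genes with TOP mRNAs also fell with FK506. Of 16, 16 fell with FK506 (39.6% of all genes tested; median log2 fold change -1.07), and 14 rose and 1 fell with metformin (28.6% and 27.4%; median 0.26). Eef1a1, the elongation factor that brings transfer RNA to the ribosome, went from 7780, 8140 and 7990 FPKM in Control to 3646, 3597 and 3451 with FK506 and 9554, 9836 and 9709 with metformin. The largest fall with FK506 was in Npm1, a nucleolar chaperone (-2.20 ± 0.041 SE), and the smallest in the initiation factor subunit Eif3f (-0.35 ± 0.036). With metformin the largest rise was in the initiation factor subunit Eif3e (0.45 ± 0.043), and the exception was Hnrnpa1, a splicing factor (-0.60 ± 0.035). With metformin added to FK506, 2 rose and 3 fell (15.6% and 15.0% of all genes tested), and in the interaction 12 were negative and 1 positive (24.0% and 22.5%).

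The noncoding hosts of small nucleolar RNAs (snoRNAs), which guide modification of ribosomal RNA, also fell with FK506. All 8 passed the test, where 39.6% of all genes tested fell, at a median log2 fold change of -2.97. Gas5 was at 920, 899 and 910 FPKM in Control and at 124, 125 and 134 FPKM with FK506 (-3.04 ± 0.039 SE). Snhg6 had the largest fall (-4.04 ± 0.113 SE) and Snhg5 the smallest (-1.56 ± 0.053). With metformin 3 rose and 3 fell, beside 28.6% and 27.4% of all genes tested, with a median of -0.06.

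Genes of ribosome assembly in the nucleolus went down with both drugs taken singly. Of 15, 14 fell and 1 rose with FK506 (39.6% and 41.3% of all genes tested; median log2 fold change -0.67), and 12 fell and 1 rose with metformin (27.4% and 28.6%; median -0.62). Myc, the transcription factor that drives many of them, was at 118, 117 and 113 FPKM in Control, 47.4, 45.7 and 49.3 with metformin, 19.1, 18.3 and 17.8 with FK506 and 12.5, 13.6 and 14.1 FPKM with both. It fell in all 5 comparisons, by 1.32 ± 0.045 (SE) on the log2 scale with metformin against Control. Ubtf, an RNA polymerase I factor, was the gene that rose, by 0.24 ± 0.036 with metformin and 0.48 ± 0.036 with FK506. Of 9 tested chaperones and importers of ribosomal proteins, 5 fell with metformin and 5 with FK506, the largest falls being in Rrs1 (-0.74) and Ipo7 (-1.40), and 0 rose (27.4% of all genes tested fell and 28.6% rose with metformin, and 39.6% and 41.3% with FK506). In the interaction 11 assembly genes were positive and 3 negative (22.5% and 24.0% of all genes tested), with a median of 0.45.

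Of the 78 tested mitochondrial ribosomal protein genes, whose products build the ribosome inside mitochondria, 67 fell and 2 rose with FK506 at a median log2 fold change of -0.53, where 39.6% of all genes tested fell and 41.3% rose. With metformin 43 fell, 5 rose and 30 did not pass the test, at a median of -0.19, where 27.4% of all genes tested fell and 28.6% rose. The interaction was positive for 19 and negative for 3, beside 22.5% and 24.0% of all genes tested.

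**Figure D5:**
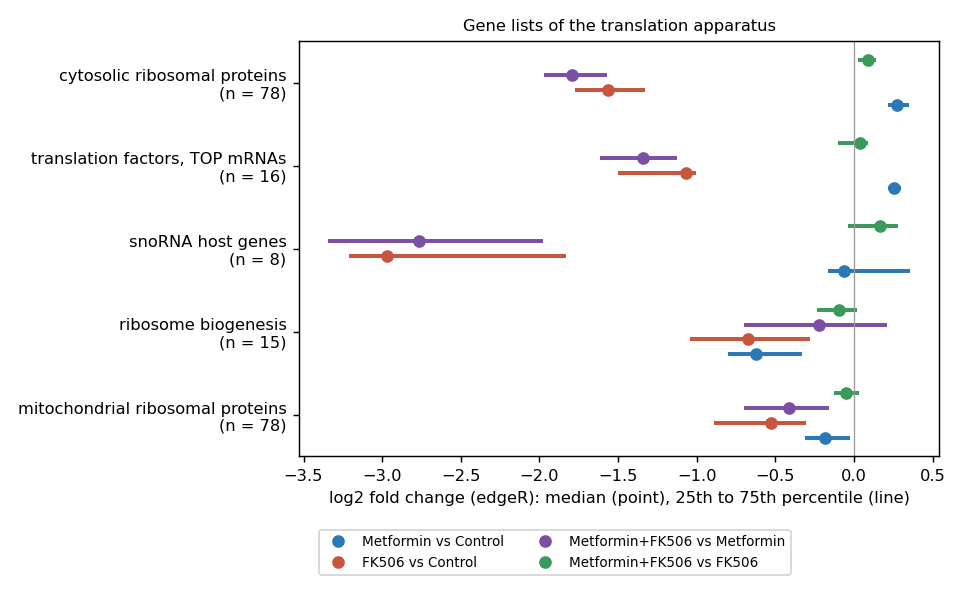
Median (point) and 25th to 75th percentile (line) of the log2 fold change (horizontal axis, edgeR) of the tested genes of 5 lists, in 4 comparisons shown in different colours. Cytosolic ribosomal protein genes and translation factors lie above 0 with metformin (0.27 and 0.26), where assembly genes (-0.62) and mitochondrial ribosomal protein genes (-0.19) lie below, and all 5 medians are negative with FK506.

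Of 13 genes of mTORC1 and its targets, the regulators of TOP mRNAs, 6 rose and 5 fell with FK506, beside 41.3% and 39.6% of all genes tested. With metformin 4 rose and 4 fell, beside 28.6% and 27.4% of all genes tested. Larp1, the TOP-binding protein, was at 84.4, 82.6 and 82.5 FPKM in Control, 62.9, 60.1 and 59.5 with metformin and 32.4, 34.0 and 33.9 FPKM with FK506, so it fell with both (log2 fold change -0.48 ± 0.034 and -1.53 ± 0.035 SE). Mtor itself did not pass the test with either drug (-0.11 ± 0.053 and 0.06 ± 0.052). Of the inhibitors of cap-dependent translation, Eif4ebp1 fell by 3.36 ± 0.060 on the log2 scale with FK506 and Eif4ebp2 rose by 0.99 ± 0.038.

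Among 12 targets of p53, which a surplus of free Rpl5 and Rpl11 can activate, 5 rose and 5 fell with FK506 (41.3% and 39.6% of all genes tested), and 7 rose and 1 fell with metformin (28.6% and 27.4%). Trp53inp1 had the largest rise with metformin (1.54 ± 0.078 SE) and Cdkn1a, the cell cycle inhibitor p21, was the gene that fell (-0.88 ± 0.043). With FK506, Cdkn1a changed by -1.30 ± 0.043, Eda2r rose most (1.76) and Sesn2 fell most (-1.54).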

How the data were processed

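RNA of 12 samples of mouse splenic CD4+ T cells, 3 in each of 4 groups assigned from the labels, was analysed. For every gene and sample the authors deposited a read count, a whole number with no scaling, and an FPKM value, which scales counts to library size and transcript length. The authors also deposited TPM values in 12 columns, which were not used here. The submitters' processing notes name bcl2fastq 2.20.0, Trimmomatic, HISAT2 2.1.0, StringTie 2.1.3b and the build mm10, without their roles. Whether strand was used and how reads shared with near-identical copies were counted is not given in the sources used here. Ribosomal protein genes have many processed copies, so values of single members are uncertain to that extent. The 216 rows named as pseudogenes of members held 1.08% to 1.39% as many counts as the members.

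Differences were tested with edgeR 4.0.16 in R 4.3.3 (TMM, glmQLFit and glmQLFTest) on the counts of all 4 groups, with 8 residual degrees of freedom. The fit took the 15197 genes that reached 0.5 FPKM in 3 or more samples. P-values were adjusted over all of them (Benjamini-Hochberg), and a gene was called at an adjusted p under 0.05. SE is the log2 fold change divided by the square root of the test's F. At 43402632 to 64290105 counts per sample, counting error was small for all tested members but Rpl32l and Rpl39l, which had as few as 3 and 13 counts. A chi-square test of counts between replicates gave 3.98 to 15.2 times its degrees of freedom for every pair, more than counting error alone. Each library was counted as its own sample. Separate libraries of 1 culture could also give such values, so the test does not show that the samples were independent. The fit was also run on simulated counts drawn from the Control means, with few genes changed. That run cannot show how the fit behaves when most genes differ, as they did with FK506.

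The members and gene lists were chosen with earlier results of these data known. Genes named are the 5 largest rises and falls past the threshold in each comparison, members with known special roles or paralogs, the largest rise and fall of each list, and members that go against the rest. Genes named beyond these, such as Rpl21, Rps24, Eef1a1 and Gas5, were chosen after their values were seen, as were the motifs. Alternatives used DESeq2 1.42.0, limma 3.58.1, other scalings, filters and left-out libraries. Some members are not reported here by name. RefSeq sequences of GRCm38.p6 matched 58 of the 78 tested members by symbol.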

Additional observations from a re-analysis of the deposited data

Results flagged for a closer look

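The change with metformin differed with and without FK506 in 42 ribosomal protein genes, by the test of the interaction itself (edgeR quasi-likelihood test, adjusted over all genes tested), which 46.5% of all genes tested also passed. For 41 the change was lower when FK506 was present, and for 1 it was higher, beside 24.0% and 22.5% of all genes tested. The higher one was Rps2, at 0.16 on the log2 scale, which lost its call in 18 of 24 alternatives and changed sign in 1. The lower ones with the largest values were Rpl36a at -0.46 (not called with quantile normalization), Rps26 at -0.46, Rps27a at -0.43, Rps20 at -0.38 and Rpl5 at -0.36. Groups of 3 samples were not searched for single outlying samples.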

How the results depend on the processing

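The falls with FK506, against Control and with metformin present, involved at least 75 genes under every scaling, filter, test and left-out library tried except quantile normalization (67 to 71). The rises with metformin numbered 67 to 74 under all but quantile normalization (33 higher, 3 lower) and a minimum log2 fold change of 0.5 (1 higher). With metformin, 1 gene was lower under the DESeq2 Wald test, with no filter and with only the groups compared in the fit, and 0 to 1 when a library was left out. Quantile normalization gave 1 rise with FK506, 4 with both drugs against Control and 1 against metformin. In Metformin+FK506 against FK506 it gave 5 falls, and for the interaction 5 positive and 20 negative genes, beside 21.7% and 23.8% of all genes.

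For Metformin+FK506 against FK506, 11 genes were higher with no filter (6.82% of all genes), 11 with only the groups compared in the fit (12.6%), 10 with limma on log2(FPKM + 1) (12.8%), 8 with limma on log2(FPKM + 0.1) (11.4%) and 0 at a log2 fold change of at least 0.5, which also left 0 lower. Leaving out 1 library gave 5 to 35 higher (11.6% to 15.2% of all genes) and 2 to 4 lower. Scaled to the T cell genes, 1 was higher and 19 lower, and the median was -0.055, where the median of all genes was -0.14 and 36.3% of them were lower. For the interaction, 0 genes were positive under DESeq2 size factors, total counts, upper-quartile scaling, no filter, a mean FPKM of at least 1, both limma fits on FPKM, pseudogene rows added to members, the replicate block and T cell scaling. Leaving out 1 library gave 0 to 1 positive and 30 to 48 negative. T cell scaling gave 70 negative and -0.016 for Rps2, with 36.7% of all genes negative and a median of -0.19 over all genes, and a log2 fold change of at least 0.5 left 0 positive and 0 negative. The causes of these shifts were not tested.

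For 33 values of single named genes, 819 values were computed under the alternatives in all. Of these, 772 kept direction and side of the threshold, 46 lost the call and 1, that of Rps2 given above, changed sign. In FK506 against Control, some scalings moved the median of all genes by over 0.1: it was 0.02 with TMM, 0.25 with total counts, 0.19 and 0.23 with limma on log2(FPKM + 1) and log2(FPKM + 0.1), and 0.42 with T cell scaling. The share of called genes that were higher was 51.1%, 62.1%, 61.3%, 61.5% and 69.5% in the same order. DESeq2 size factors (0.045), upper-quartile scaling (0.062) and quantile normalization (-0.032) moved that median by less. The replicate block, with the replicate number as a factor, gave 71 rises with metformin, 77 falls in each comparison of FK506 with its absence, 16 rises and 2 falls in Metformin+FK506 against FK506, and 38 negative and 0 positive interactions. The 18 pairs of samples with the same number correlated at -0.086 to 0.054 in their deviations from group means, and 4 of 12 samples correlated best with their own number, so the numbers were not taken to pair samples.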
